A study of Mus musculus with 14 samples.

Results

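The cardiac sarcomere genes studied here are Myh6, Myh7, Mybpc3, Myl2, Myl3, Actc1, Tnnt2, Tnni3, Tnnc1 and Tcap, which encode proteins of the contractile unit of heart muscle. They were picked by name through the gene annotation of the probe sets. The choice uses no cut on a measured value, but it was made with earlier results of these data known. The 10 genes are 10 of the 8251 genes annotated on the array, and 12 probe sets carry their names. All 12 probe sets passed the filter on low signals and entered the tests. Myh7 and Actc1 have a pair of probe sets each, and the brightest probe set over all arrays stands for its gene.

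Messenger RNA of 14 transplanted mouse hearts was measured, each heart on 1 MG-U74Av2 oligonucleotide array, which reports a signal intensity for each probe set. Rejecting allografts were Balb/c hearts placed in C57/BL6 recipients without antibody and taken at day 7 (n = 3). Tolerizing allografts had the same donor and recipient strains and an anti CD80/86 mAb, a pair of antibody specificities that block T cell costimulation, and were taken at day 7 (n = 3) and at day 70 (n = 3). Isografts were C57/BL6 hearts placed in C57/BL6 recipients, taken at day 7 (n = 3) and at day 70 (n = 2). Allografts and isografts thus also differ in donor strain, whose part cannot be told apart from that of the immune response. The ages of the mice and the antibody dose are not given in the labels, and every tissue analysed here was a graft. Recipient blood cells that enter a graft are part of the tissue that was measured.

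In a sarcomere, thick filaments of myosin pull on thin filaments of actin. Myh6 and Myh7 encode the α and β myosin heavy chains, the motor proteins, and Myh6 is the main one of the adult mouse ventricle. Myl2 and Myl3 encode the regulatory and essential light chains of ventricular myosin, and Mybpc3 the myosin-binding protein C of heart, which tunes the contact of myosin with actin. Actc1 encodes cardiac α-actin. Tnnt2, Tnni3 and Tnnc1 encode cardiac troponin T, cardiac troponin I and the calcium-binding troponin C shared by heart and slow muscle, the switch that makes contraction depend on calcium. Tcap encodes telethonin, which caps the end of titin at the Z-disc, where neighbouring sarcomeres meet. Calcium handling genes, energy supply and these filament genes are known to be expressed together in heart muscle cells.

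Promoter windows of 9 of the 10 genes were found in the RefSeq table of build GRCm38.p6, in 12 windows that run from 250 bases before to 50 after an annotated start. The windows of the genes with the largest falls (Myh6 and Myl3) and the smallest falls (Mybpc3 and Tnnt2) in rejecting hearts are shown, so that the start regions of genes at both ends of the response described below can be read side by side. The Myh6 window is chr14:54966558-54966857 on the minus strand, the Myl3 window chr9:110763428-110763727 on the plus strand, the Mybpc3 window chr2:91117894-91118193 on the plus strand and the Tnnt2 window chr1:135836084-135836383 on the plus strand. Capitals mark matches, on either strand, to 5 motifs known from muscle or general promoters.
Myh6: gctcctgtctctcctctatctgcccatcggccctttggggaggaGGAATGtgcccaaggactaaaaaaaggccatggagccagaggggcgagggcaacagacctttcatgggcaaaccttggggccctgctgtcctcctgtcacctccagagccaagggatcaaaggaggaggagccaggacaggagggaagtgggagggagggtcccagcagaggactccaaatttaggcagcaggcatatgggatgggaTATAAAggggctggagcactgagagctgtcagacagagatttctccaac
Myl3: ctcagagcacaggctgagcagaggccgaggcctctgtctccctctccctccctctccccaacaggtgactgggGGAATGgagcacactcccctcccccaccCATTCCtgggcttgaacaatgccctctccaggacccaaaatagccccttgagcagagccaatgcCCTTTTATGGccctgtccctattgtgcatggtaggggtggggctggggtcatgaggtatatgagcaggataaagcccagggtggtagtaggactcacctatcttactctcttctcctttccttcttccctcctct
Mybpc3: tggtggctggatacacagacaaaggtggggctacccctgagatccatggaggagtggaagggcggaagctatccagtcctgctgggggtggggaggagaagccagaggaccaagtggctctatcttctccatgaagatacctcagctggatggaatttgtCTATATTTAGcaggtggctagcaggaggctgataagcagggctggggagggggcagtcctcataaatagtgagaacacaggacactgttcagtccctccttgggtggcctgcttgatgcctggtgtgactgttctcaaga
Tnnt2: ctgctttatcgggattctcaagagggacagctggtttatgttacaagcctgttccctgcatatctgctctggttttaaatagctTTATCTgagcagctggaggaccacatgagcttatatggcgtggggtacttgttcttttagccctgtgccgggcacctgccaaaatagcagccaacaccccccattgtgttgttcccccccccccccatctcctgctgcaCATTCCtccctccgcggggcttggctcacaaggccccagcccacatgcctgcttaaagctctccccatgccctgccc

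The letters TATAAA of the TATA box were searched first. The M-CAT element of muscle promoters was searched with the letters CATTCC. A site of the GATA factors of heart development was searched with the letters AGATAA. The other motifs were the CArG box bound by serum response factor and the MEF2 site, and no matches overlapped each other. An M-CAT match was in 5 of the 12 windows, each of another gene (Myh6, Myh7, Myl3, Tnnt2 and Tnnc1), against 14.7% of all 32851 windows of the table. The 5 include genes with the largest and the smallest falls. TATAAA was in 3 of 12 windows (Myh6, Myl2 and Actc1), against 13.6% of all windows. Its first base was at position 2 for Myh6 and 34 for Actc1, counted from 1 at the annotated start. For Myl2 it was at -216 on the opposite strand. None of these 3 matches lay in the usual place of a TATA box, shortly before the annotated start. Other forms of a TATA box, such as the letters TATATAA in the Tnnc1 window, were not searched. The GATA site was in 2 windows (Myl2 and Tnnt2; 11.2%), the CArG box in 2 (Myl3 and Actc1; 1.63%) and the MEF2 site in 1 (Mybpc3; 3.19%). The Tnni3 window held no match to any of the 5 motifs as searched, and other forms of the GATA site were not searched. Myh6 and Myh7 lie on the same chromosome, 14.

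The values of all genes on all arrays set the frame for the comparisons. The arrays had median signals of 38.2 to 45.65, and 10395 of the 12422 probe sets that are no controls were tested. Accession order puts the arrays in 2 submission runs, 5 arrays in the first (number 3 of each group of 3, and isograft 2 of day 70) and 9 in the second. Each run holds all 5 groups, and no label says what separates them. The 3′ signal of the 18S control was 30.3 to 83.4 in the first run and 120.4 to 254.6 in the second. Beta-actin, whose ratio of 3′ to 5′ signal is lower where RNA is better preserved, had ratios of 1.26 to 1.61 in rejecting, 1.09 to 1.37 in tolerizing and 1.52 to 1.98 in isograft hearts at day 7. Within the rejecting group the correlation between arrays across probe sets was as low as 0.872, against 0.936 or higher within the other groups. Rejecting heart 3, the first-run array, stands apart from rejecting hearts 1 and 2 in the sarcomere genes, so that the fitted differences of rejecting hearts are given with and without it. That choice rests on the values of these same genes, so the fits without rejecting heart 3 are a description.

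**Figure D1:**
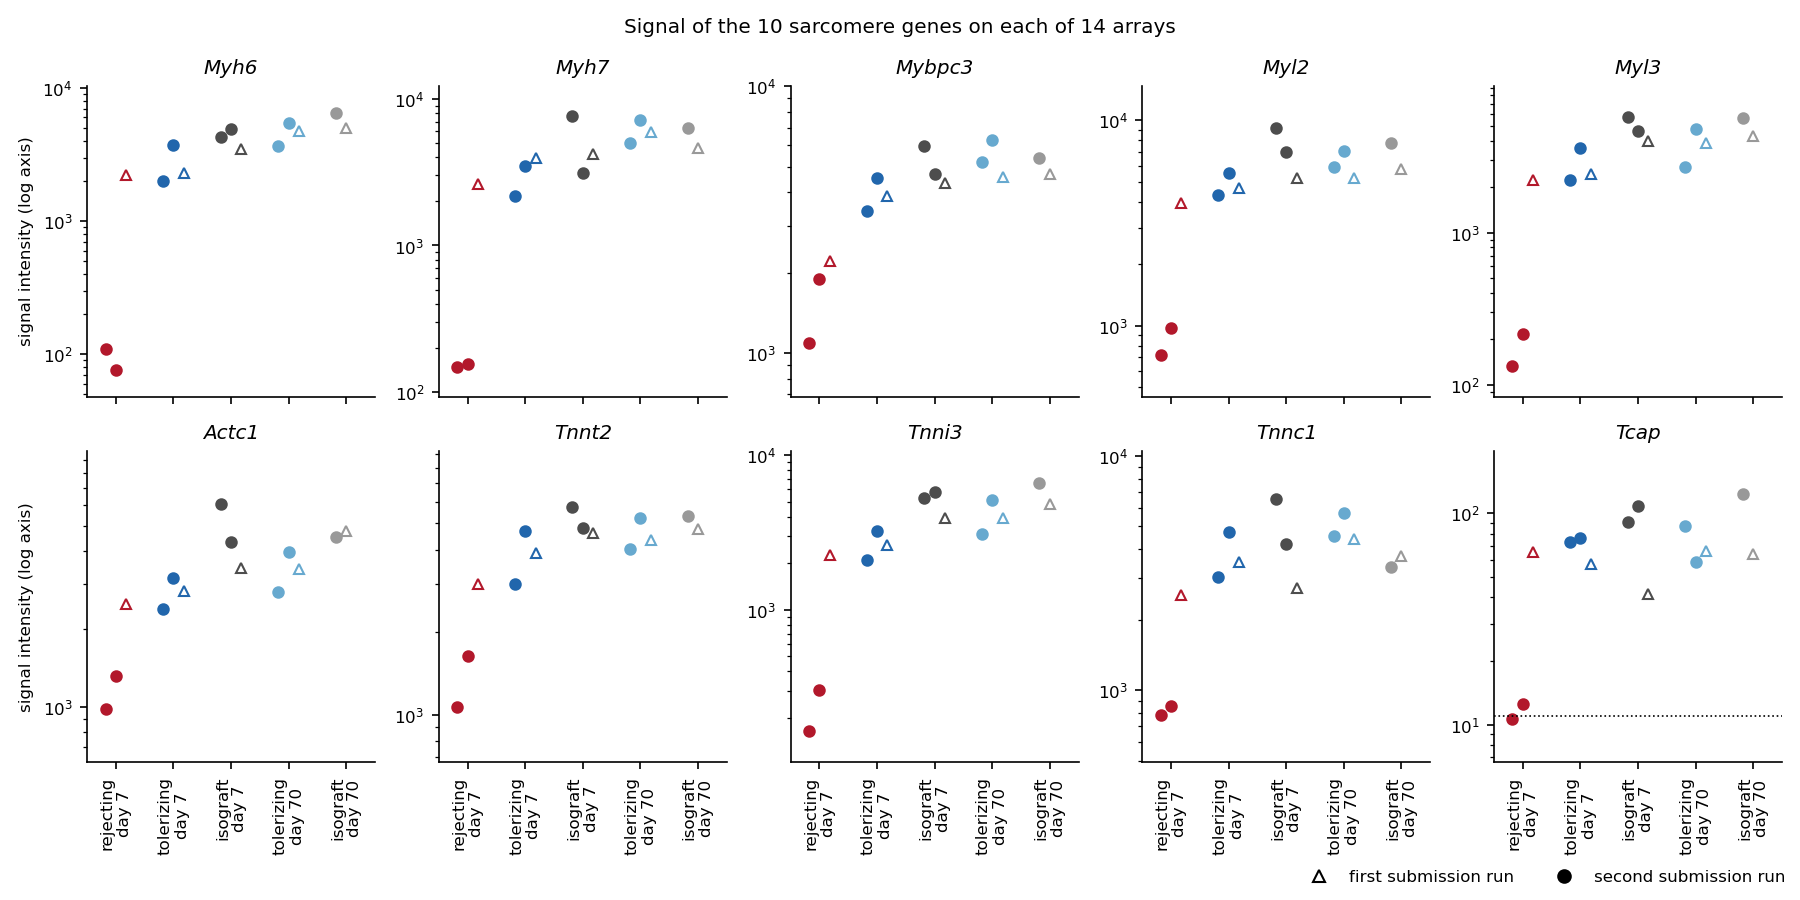
Signal intensity (log axis) of each of the 10 sarcomere genes on the 14 arrays, by group, with open triangles for the first and filled circles for the second submission run and a dotted line at the floor of 11 in the Tcap panel. Rejecting hearts 1 and 2 lie below every other heart for each gene, while rejecting heart 3 lies at 44.3% to 81.7% of the day 7 isograft mean.

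Sarcomere genes were lower in rejecting allografts than in isografts at day 7, a comparison that asks how an untreated allograft differs from a graft that had the same surgery. All 10 genes fell (limma, Benjamini-Hochberg adjusted p between 0.002294 and 0.04016), where 9.18% of all tested probe sets were called lower. Their median log2 difference was -2.07, from -3.99 for Myh6 to -1.53 for Tnnt2, and the median over all tested probe sets was 0.04. In 9 of the 10 genes the highest rejecting array lay under the lowest isograft array, which 15.4% of tested probe sets showed. Fewer muscle cells in the sample and less of these RNAs per muscle cell cannot be told apart in a whole-heart extract.

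Among thick filament genes, Myh6 had signals of 108.7, 76.3 and 2212.3 in rejecting hearts and 4297.2, 4935.9 and 3487.4 in isografts. Rejecting hearts 1 and 2 were far below the rest and the groups did not overlap. Myh6 fell 15.9-fold (log2 -3.99, SE 0.88, limma adjusted p = 0.006722), with a log2 difference of -5.53 without rejecting heart 3. Myh7 gave 148, 155.2 and 2622.3 in rejecting hearts against 7644.4, 3097.9 and 4207.9 in isografts. The first and second rejecting hearts were again far below the third, which was at 17.3 times the mean of the other two and under each isograft. Myh7 fell 11.8-fold (log2 -3.56, SE 0.82, limma adjusted p = 0.00829), with a log2 difference of -4.93 without rejecting heart 3. The dimmer Myh7 probe set, at a mean signal of 76.8 over the arrays, fell by 1.67 on the log2 scale (limma adjusted p = 0.02268). The names of both Myh7 probe sets mark probes that may also match related transcripts of the myosin family, so the signals of Myh7 and Myh6 may not be fully separate.

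The ventricular light chains fell with the heavy chains. Myl3 had 132.7, 214.9 and 2225 in rejecting hearts and 5757.4, 4691.1 and 4034.3 in isografts. The gap between rejecting heart 3 and the other two was 12.8-fold, and all of them lay under each isograft. Myl3 fell 12-fold (log2 -3.58, SE 0.73, limma adjusted p = 0.004534), with a log2 difference of -4.82 without rejecting heart 3. Myl2 gave 718.1, 974.4 and 3944.3 in rejecting hearts against 9197.3, 6984.4 and 5222.4 in isografts. Its rejecting hearts 1 and 2 were low but kept more of the signal than those of Myl3. Myl2 fell 4.95-fold (log2 -2.31, SE 0.49, limma adjusted p = 0.005494), with a log2 difference of -3.05 without rejecting heart 3.

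Mybpc3, the myosin-binding protein, had 1095.3, 1892.5 and 2219.6 in rejecting hearts and 5987.4, 4692.9 and 4335.6 in isografts. Here the rejecting hearts lay closer together than for the myosin chains, and each was under each isograft. Mybpc3 fell 2.98-fold (log2 -1.58, SE 0.29), with the smallest adjusted p of the 10 genes (limma, 0.002294), with a log2 difference of -1.78 without rejecting heart 3.

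Thin filament genes fell to different depths. Tnni3 had 165, 304.4 and 2260.3 in rejecting hearts and 5272.1, 5737 and 3923.3 in isografts. Its rejecting hearts split as for the myosin heavy chains, with no overlap with isografts. Tnni3 fell 10.1-fold (log2 -3.34, SE 0.67, limma adjusted p = 0.004126), with a log2 difference of -4.45 without rejecting heart 3. Its partner Tnnt2 gave 1069.4, 1633 and 2991.2 in rejecting hearts against 5730.6, 4803 and 4617.4 in isografts. The rejecting hearts of Tnnt2 differed by less than those of Tnni3 and again did not reach the isografts. Tnnt2 fell 2.9-fold (log2 -1.53, SE 0.33, limma adjusted p = 0.005845), with a log2 difference of -1.93 without rejecting heart 3.

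Tnnc1, the calcium sensor, had 786.8, 855.7 and 2546.2 in rejecting hearts and 6534.3, 4208.2 and 2728.1 in isografts. Rejecting heart 3 and isograft 3, the arrays of the first run, nearly met. Tnnc1 fell 3.52-fold (log2 -1.82, SE 0.42, limma adjusted p = 0.008786), with a log2 difference of -2.36 without rejecting heart 3. Actc1 gave 980.6, 1319.6 and 2491.1 in rejecting hearts against 6061.3, 4320.5 and 3430.8 in isografts. All rejecting hearts were under all isografts. Actc1 fell 3.03-fold (log2 -1.6, SE 0.33, limma adjusted p = 0.004397), with a log2 difference of -1.98 without rejecting heart 3. Its other probe set fell by 2.19 on the log2 scale (limma adjusted p = 0.002312), and the brighter one may also match other actin transcripts.

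Tcap, the titin cap, was close to the floor of 11 in rejecting hearts 1 and 2. It gave 10.6, 12.5 and 65.6 in rejecting hearts and 91.4, 107.9 and 41.7 in isografts. Rejecting heart 3 was above isograft 3, so the groups overlapped. Tcap fell 3.57-fold (log2 -1.84, SE 0.57, limma adjusted p = 0.04016), with a log2 difference of -2.66 without rejecting heart 3. The Tcap call was lost in 9 of 20 other settings, among them the fits without rejecting heart 1 or 2 and without isograft 1 or 2.

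**Figure D2:**
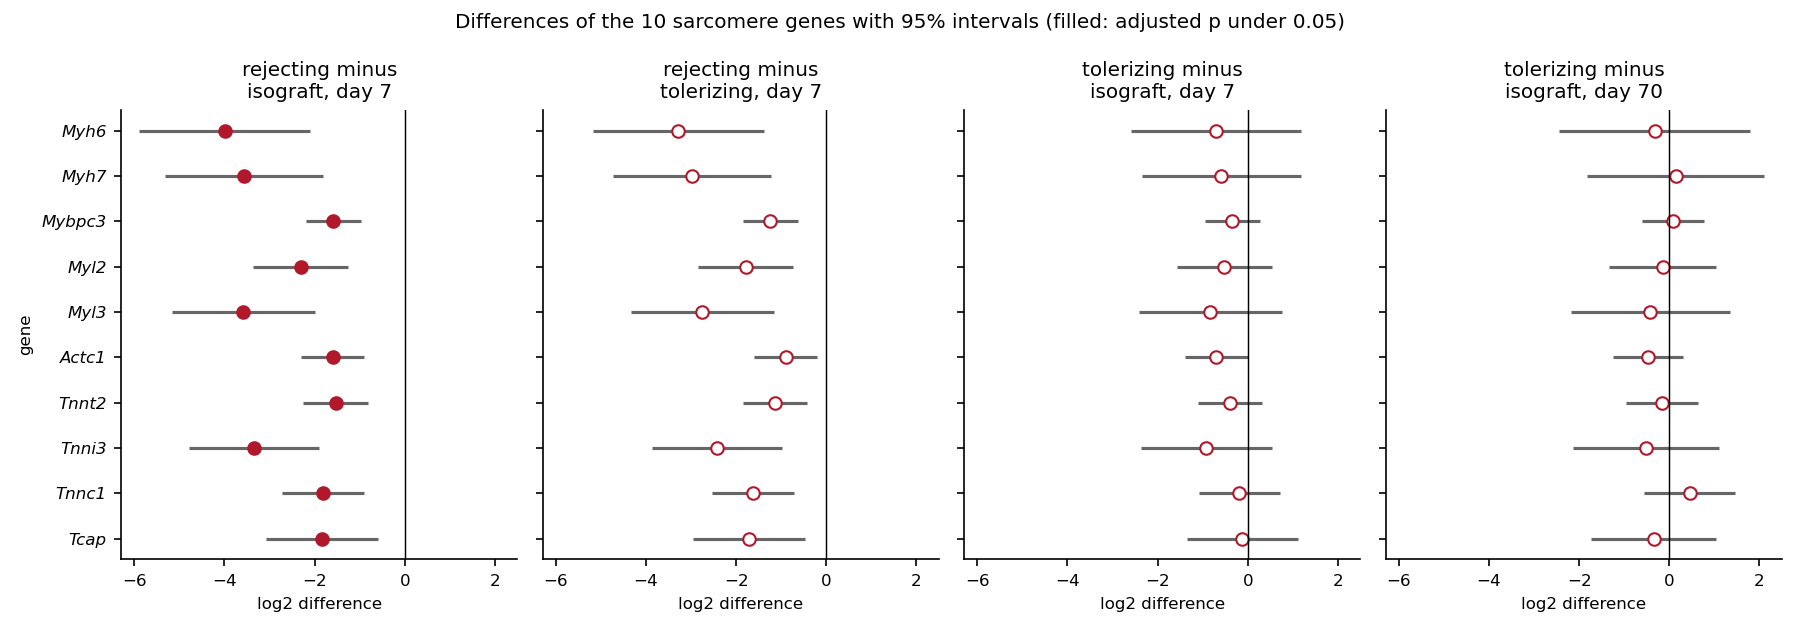
Log2 differences of the 10 genes in 4 comparisons, each point with its 95% interval from the limma fit on 14 arrays and filled where the adjusted p is under 0.05. Points are filled only for rejecting minus isograft hearts at day 7, from -3.99 for Myh6 to -1.53 for Tnnt2.

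The spread between rejecting hearts bears on these calls. Fitted on the groups of this comparison alone, whose spread is then not shared with other groups, Mybpc3 was called (limma adjusted p = 0.03355) and the other 9 genes had adjusted p between 0.05647 and 0.1996, where 5.35% of probe sets were called lower. In the second run alone all 10 genes were called lower with a median of -3.17 (8.13% of probe sets), and without rejecting heart 3 all 10 with a median of -2.86 (10.5%). With 1 array per group, the first run could not be tested. There the rejecting heart was lower than the isograft in 9 of 10 genes, with a median log2 difference of -0.64, from -0.97 for Mybpc3 to 0.65 for Tcap.

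Taken as a percentage of the day 7 isograft mean, the genes of rejecting hearts 1 and 2 spread over a wide range. Myh6, Myh7, Myl3 and Tnni3 stood at 1.8% to 6.12% in these 2 hearts. Myl2, Tnnc1 and Tcap stood at 10.1% to 19.1%. Mybpc3, Actc1 and Tnnt2 stood at 21.2% to 37.8%. These groups of genes were formed after the values were seen and are a description. They rest on the brightest probe set of each gene. The other Actc1 probe set had 552 and 904.1 in rejecting hearts 1 and 2, against an isograft mean of 4740. The dimmer Myh7 probe set had 22.4 and 16.4, against an isograft mean of 87.9. With these probe sets neither Actc1 nor Myh7 keeps its place. In rejecting heart 1 the highest of the 10 percentages was 8.54 times the lowest, and in rejecting heart 2 it was 21 times. In rejecting heart 3 it was 1.84 times, within the 1.57 to 2.18 of tolerizing and the 1.51 to 2.16 of isograft hearts at day 7. Subunits of 1 complex stood apart, with the troponin genes Tnni3 and Tnnt2 at 3.31% and 21.2% in rejecting heart 1, and at 6.12% and 32.3% in rejecting heart 2.

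**Figure D3:**
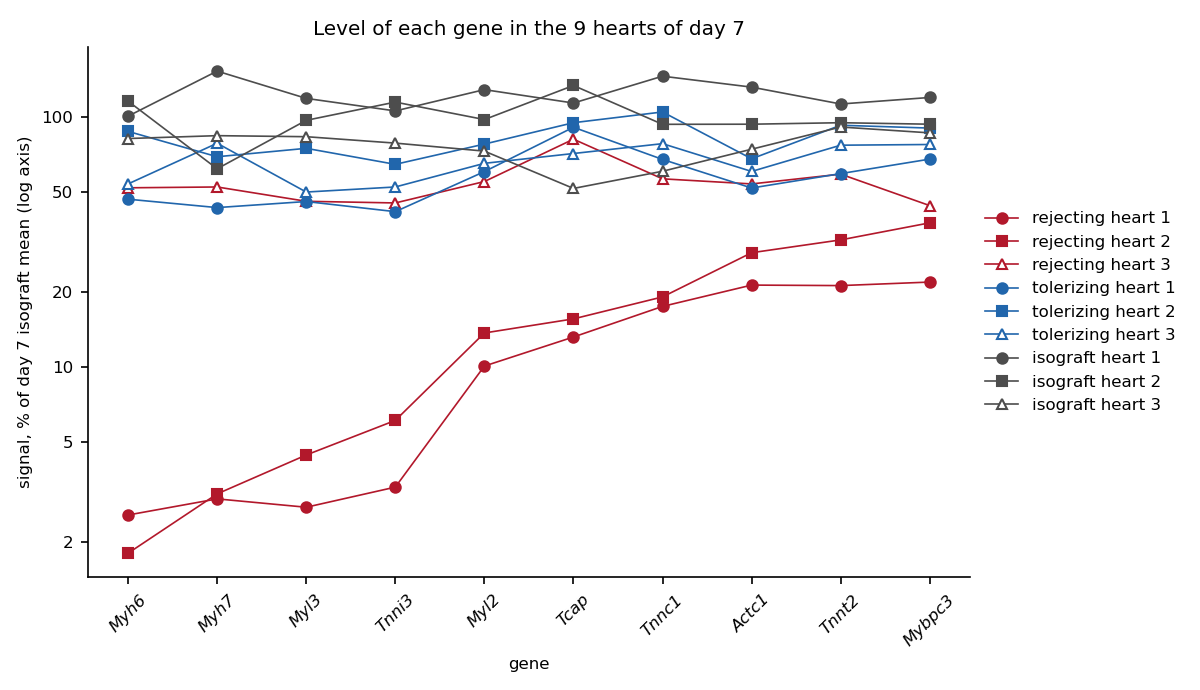
Signal of each gene in the 9 hearts of day 7 as a percentage of the day 7 isograft mean (log axis), 1 line per heart, with open triangles for the first submission run. Rejecting hearts 1 and 2 slope from 2.56% and 1.8% at Myh6 to 21.9% and 37.8% at Mybpc3, while rejecting heart 3 lies between 44.3% and 81.7%, below every tolerizing heart for Mybpc3, Myl2, Tnnt2 and Tnnc1 and within their range for the other 6 genes.

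Between rejecting and tolerizing allografts of day 7, which share the donor strain and differ in the antibody, no sarcomere gene was called, where 0.885% of tested probe sets were called lower. All 10 differences were negative, with a median of -1.75 (0.06 over all probe sets) and a range from -3.29 for Myh6 to -0.9 for Actc1. The adjusted p ran from 0.0525 for Mybpc3 to 0.1978 for Actc1 (limma). All 10 had an unadjusted p under 0.05, against 7.73% of all probe sets that passed this on the lower side. Groups did not overlap in 4 genes (Mybpc3, Myl2, Tnnt2 and Tnnc1), which 7.76% of probe sets showed on the lower side.

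Myh6 gave 1990.8, 3721.5 and 2294.5 in tolerizing hearts, so that rejecting heart 3 at 2212.3 lay inside their range. The log2 difference of rejecting minus tolerizing hearts was -3.29 for Myh6 (SE 0.88, limma adjusted p = 0.08964). For Mybpc3 the tolerizing hearts gave 3404.3, 4528 and 3893.3, each above each rejecting heart. The difference was -1.24 for Mybpc3 (SE 0.29, limma adjusted p = 0.0525). Tcap gave 73.3, 76.4 and 57.5 in tolerizing hearts, with rejecting heart 3 at 65.6 among them.

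One array decided whether this comparison passed. Without rejecting heart 3, all 10 genes were called lower (4.49% of probe sets), Myh6 at -4.82 and Mybpc3 at -1.44 with limma adjusted p of 6.73e-06 and 0.01034. Each array was left out in turn, but this heart was singled out by its high values in these same genes. The calls without it show how the result depends on 1 array and are no separate evidence of a fall. Second-run arrays alone gave 7 calls (1.04% of probe sets), all but Mybpc3, Actc1 and Tnnt2. With array weights, which gave less weight to arrays far from the rest of their group, 10 were called (7.36%). Mybpc3 and Tnnc1 were called with a floor at the 50th percentile (1.44% of probe sets) and with quantile normalization (1.01%). Mybpc3 alone was called in 4 other settings, where the share of probe sets called lower was 0.933% with log2(signal + 16), 1.19% with probe sets above the floor on all 14 arrays, 0.683% without the intensity trend and 0.982% with the median over probe sets. In the first run, with 1 array per group, the median difference of rejecting minus tolerizing was -0.23, from -0.81 for Mybpc3 to 0.19 for Tcap. No call followed from leaving out any of the other 5 arrays of this comparison. Of the 25 leukocyte markers, Itgb2, an integrin chain of white blood cells, was called higher in rejecting than in tolerizing hearts (limma adjusted p = 0.0275), where 0.529% of probe sets were called higher. Without rejecting heart 3, 3 of these markers were called higher (Itgb2, Cd68 and S100a8), where 304 of 10395 probe sets were called higher. Of 24 other cardiomyocyte genes, 3 were called lower on all arrays (0.885% of probe sets) and 19 without rejecting heart 3 (4.49%).

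Markers of leukocytes were read from a list of 28 genes, of which 25 were measured. Of the 25, 20 were called higher in rejecting hearts than in isografts at day 7 (8.54% of all probe sets were called higher), with a median log2 difference of 2.13. Without rejecting heart 3, an alternative that for these lists was chosen after seeing the data, 19 were called higher, with a median of 1.78. In that fit 1074 of 10395 probe sets were called higher. Their summed signal was 10451 to 13221 in rejecting, 4964 to 7422 in tolerizing and 3590 to 3699 in isograft hearts at day 7. The defining marker Ptprc, the pan-leukocyte CD45, gave 140.3, 220.5 and 700.2 in rejecting hearts against 31.9, 46.9 and 76.6 in isografts. The order of the rejecting hearts differed between markers. Rejecting heart 3 was highest of the group for 12 of the 25, in the middle for 4 and lowest for 9. Cd8a, a chain of the coreceptor of cytotoxic T cells, had 70, 216.4 and 466 in the 3 rejecting hearts, while the macrophage gene Cd68 had 640.3, 747.7 and 351 and Lyz2, the lysozyme of myeloid cells, 2472.4, 2205.5 and 2015.7. Cd8a, Cd68 and Lyz2 are named after their values were seen. Rejecting heart 3 had the highest leukocyte median of the rejecting hearts, at 2.52 on the log2 scale against 1.52 and 2.08 in rejecting hearts 1 and 2, and the smallest sarcomere fall, at a median of -0.83 against -3.02 and -2.7. The part of leukocyte RNA in the sarcomere result was not tested.

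Other cardiomyocyte genes, a list of calcium handling, channel, energy and structural genes outside the sarcomere, were called lower in 17 of 24 measured genes and higher in none, with a median of -2.48 (9.18% of probe sets called lower). The count without rejecting heart 3 was 19 of 24 with a median of -2.99 (10.5% of probe sets). Their medians in rejecting hearts 1, 2 and 3 were -3.37, -2.79 and -0.98. The sarcomere genes and this list thus had the same order over the rejecting hearts. Fibroblast markers were called lower in 5 of 10 genes (median -1.21), endothelial markers in 5 of 10 (median -0.97) and smooth muscle markers in 1 of 6, Myh11 (median 0.14), where 9.18% of probe sets were called lower. Without rejecting heart 3, fibroblast and endothelial counts were again 5 each (medians -1.11 and -0.97, 10.5% of probe sets called lower). The smooth muscle genes Acta2 and Tagln were called higher in that fit (log2 1.3 and 1.73, limma adjusted p = 0.04906 and 0.02206), as were 1074 of all 10395 probe sets.

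**Figure D4:**
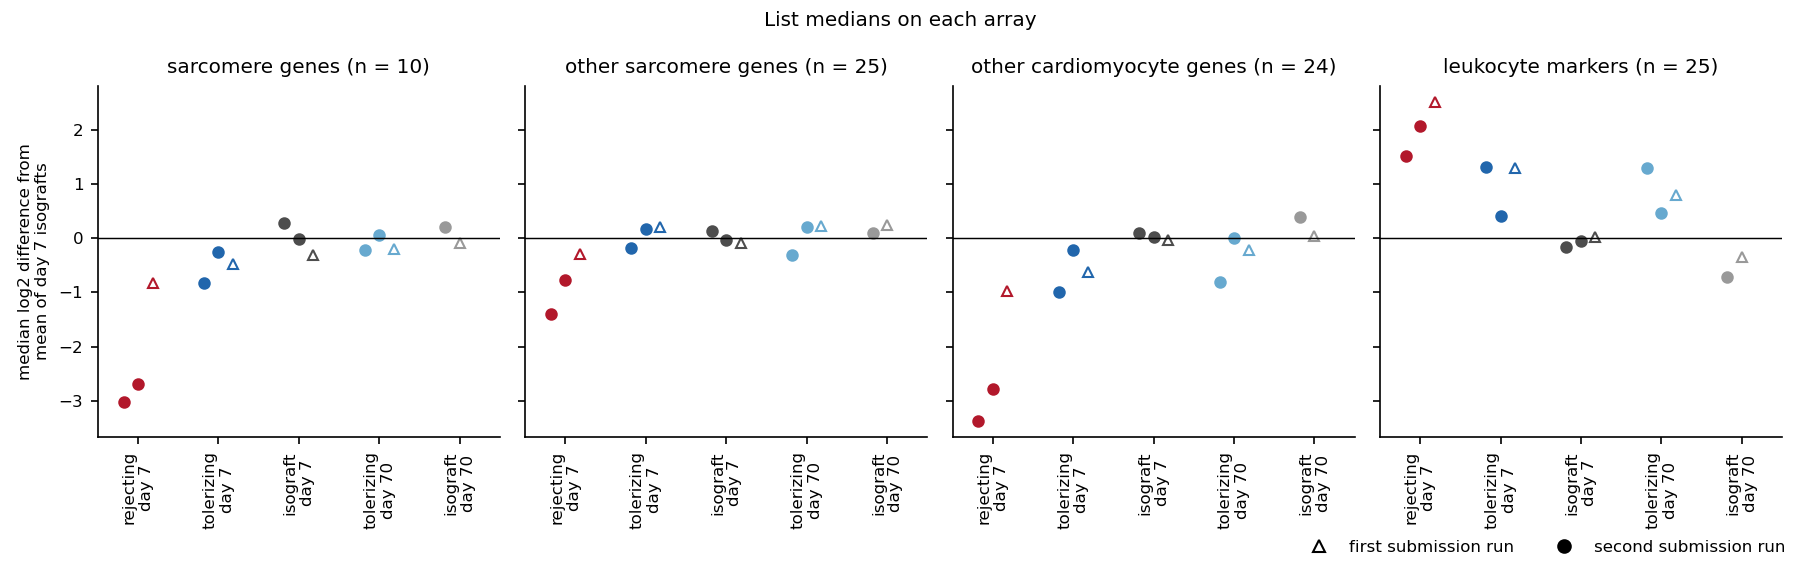
Median log2 difference from the mean of the day 7 isografts on each array for the 10 sarcomere genes, 25 other sarcomere genes, 24 other cardiomyocyte genes and 25 leukocyte markers, with open triangles for the first submission run. In rejecting heart 3 the sarcomere median is -0.83 and the leukocyte median 2.52, the smallest fall and the largest rise of the 3 rejecting hearts.

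Some other genes of the sarcomere also fell. Of 53 further genes of the sarcomere, Z-disc, M-band and filament upkeep, 25 were measured, and 10 of them were called lower and none higher in rejecting hearts against isografts (9.18% of all probe sets were called lower), with a median of -0.61. Smyd1, a methyltransferase that works with chaperones in myosin assembly, had 4.6, 6.8 and 124.3 in rejecting hearts and 586.1, 565.8 and 529.7 in isografts. Rejecting hearts 1 and 2 were under the floor of 11, so that the size of the Smyd1 fall is limited by the floor. Smyd1 was called lower (limma adjusted p = 0.001521, with 22.7-fold as fitted with those signals raised to the floor). Myom1, which crosslinks thick filaments at the M-band, fell 6.22-fold (log2 -2.64, SE 0.59, limma adjusted p = 0.007733), and Myom1 differed by -3.53 without rejecting heart 3. Fhod3, a formin of thin filament assembly, fell 5.39-fold (log2 -2.43, SE 0.47, limma adjusted p = 0.003489; Fhod3 at -3.08 without rejecting heart 3). Ldb3, a Z-disc protein that binds α-actinin, fell 4.76-fold (log2 -2.25, SE 0.48, limma adjusted p = 0.005494; Ldb3 at -3 without rejecting heart 3).

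The other 6 called genes were Actn2, Myom2, Pdlim3, Fhl2, Nrap and Bag3, between 2.1-fold and 6.06-fold lower (Pdlim3 at -1.19 to Fhl2 at -3.63 on the log2 scale without rejecting heart 3). Desmin and Tpm1 are named after their values were seen. Desmin (Des), the intermediate filament between Z-discs, had 437.2, 507.9 and 333 in rejecting hearts and 538.6, 366.3 and 592.1 in isografts. Its groups overlapped, and the log2 difference of Des was -0.22 (limma adjusted p = 0.5591), or -0.05 without rejecting heart 3 (limma adjusted p = 0.8957). Tpm1, a tropomyosin of the thin filament that other cells make too, had 688.5, 429.1 and 133.6 in rejecting hearts and 141, 115.4 and 194.3 in isografts. Its log2 difference was 1.21 (limma adjusted p = 0.09676), with rejecting hearts 1 and 2 above each isograft and rejecting heart 3 inside their range. Without rejecting heart 3, Tpm1 was called higher (log2 1.89, limma adjusted p = 0.001817), as was Ankrd2, a stretch-responsive protein of the I-band (log2 0.96, limma adjusted p = 0.0411). In that fit 12 of the 25 genes were called lower, with a median of -1.04, against 10.5% of probe sets. On all arrays, none of the 25 was called in any other comparison. With rejecting heart 3 left out, 13 were called lower (4.49% of probe sets) and Tpm1 higher (log2 1.78, limma adjusted p = 0.007423) in rejecting than in tolerizing hearts.

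Tolerizing allografts at day 7 showed no called sarcomere gene against isografts, where 0.75% of tested probe sets were called lower. All 10 differences were negative, with a median of -0.56 (-0.02 over all probe sets), from -0.92 for Tnni3 to -0.12 for Tcap, and adjusted p from 0.3906 to 0.9799 (limma). No gene had an unadjusted p under 0.05, which 13% of probe sets had. This comparison shares its isografts with that of rejecting hearts, so their common sign is not independent. Groups did not overlap in 3 genes (Myl3, Actc1 and Tnni3), which 11.6% of probe sets showed on the lower side.

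Tnni3 had 2085, 3225 and 2617.1 in tolerizing hearts and 5272.1, 5737 and 3923.3 in isografts at day 7. The highest tolerizing heart was under the lowest isograft, and the log2 difference was -0.92 with a 95% interval from -2.37 to 0.53. Myl3 gave 2219.3, 3627 and 2421.7 in tolerizing hearts against 5757.4, 4691.1 and 4034.3 in isografts. These did not overlap either, at a difference of -0.83 (95% interval -2.41 to 0.75). For Actc1 the tolerizing hearts gave 2399.4, 3138.3 and 2796.7, all under the isografts' lowest of 3430.8, and the difference was -0.7 with a 95% interval from -1.4 to 0. The intervals include 0 and also falls of more than 2-fold, so a p above the threshold does not show that the groups were alike. Tolerizing heart 1 was lowest of its group in 9 of 10 genes, and its sarcomere median of -0.82 was close to the -0.83 of rejecting heart 3.

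At day 70, tolerizing allografts and isografts had no called sarcomere gene, where 0.856% of tested probe sets were called lower and 2.35% higher. The median difference was -0.24 (-0.09 over all probe sets), with 7 genes negative and 3 positive, from -0.51 for Tnni3 to 0.45 for Tnnc1, and adjusted p from 0.5937 to 0.9749 (limma). No gene had an unadjusted p under 0.05, which 15.4% of probe sets had. Myh6 had 3641.8, 5443.7 and 4723.3 in tolerizing hearts and 6464.5 and 4976.4 in isografts. The groups overlapped, at a difference of -0.32 (95% interval -2.44 to 1.8). Tnnc1 gave 4535.5, 5694.5 and 4398.5 in tolerizing hearts against 3343.8 and 3746.7 in isografts. It was higher in all tolerizing hearts, which 12.6% of probe sets showed, at a difference of 0.45 (95% interval -0.56 to 1.46). Actc1 lay the other way, with 2784.1, 3962.3 and 3425.3 in tolerizing hearts under 4532.9 and 4767.4 in isografts, which 22% of probe sets showed, at a difference of -0.47 (95% interval -1.26 to 0.31). Of the 25 leukocyte markers, 7 were called higher in the tolerizing hearts of day 70, with a median of 1.51. The 2 isografts limit what this comparison can show.

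Over time, tolerizing hearts at day 70 had a higher mean log2 signal than those at day 7 for all 10 genes, and none was called, where 0.0385% of tested probe sets were called higher. The median difference was 0.41 (-0.04 over all probe sets), from 0.03 for Tcap to 0.95 for Myh7, with 0 genes at an unadjusted p under 0.05 against 6.2% of probe sets (limma). With the replicate number as a block, 12 probe sets were called in place of 4, and again none of the 10 genes. No label says that hearts with the same number form a pair. Myh7 had 4975.9, 7216.4 and 5958.9 at day 70 and 2165.5, 3461.5 and 3924 at day 7. All tolerizing hearts of day 70 were above all of day 7, as for Mybpc3, a pattern that 5.01% of probe sets showed. Isografts at day 70 against day 7 had a median difference of 0.06, from -0.25 for Tnnc1 to 0.43 for Myh6, with 0 genes called (0% of probe sets) and 0 at an unadjusted p under 0.05 (5.38%). The difference of tolerizing minus isograft hearts was 0.4 higher at day 70 than at day 7 in the median gene, and for no gene did this change between days pass the test (0% of probe sets, limma; 0 genes at an unadjusted p under 0.05, against 3.93% of probe sets).

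Across the 5 groups, rejecting hearts of day 7 had the lowest mean signal for 10 of 10 genes, and tolerizing hearts of day 7 the next lowest for 9 of 10. The exception was Tnnc1, for which isografts of day 70 averaged 3550 ± 285 (SD, n = 2) and tolerizing hearts of day 7 averaged 3760 ± 870 (SD, n = 3). Above these groups the order changed from gene to gene. Isografts of day 70 were highest for 6 genes, tolerizing hearts of day 70 for 3 (Myh7, Mybpc3 and Tnnc1) and isografts of day 7 for 1 (Myl2). No test between these upper groups passed, but single arrays did not overlap for Actc1 and Tnnc1 between tolerizing hearts and isografts of day 70. Myh6 did not overlap between the 2 isografts of day 70 and the 3 of day 7 (log2 0.43, limma unadjusted p = 0.6658). The share of all probe sets that did so was not counted, so nothing is read from the Myh6 gap. In the group of rejecting hearts the coefficient of variation reached 153% for Myh6 and 146% for Myh7 and was 33.3% for Mybpc3, against 17.1%, 47.6% and 17.4% in isografts of day 7.

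The 10 genes ran closely together over the 14 arrays. Each gene's log2 signal correlated with the mean of the other 9 at 0.917 for Tcap to 0.996 for Myl2. These arrays share tissue, platform and the split between rejecting hearts, and the correlations are a description. Of 7353 other genes ranked by their correlation with the mean of the 10, 139 were above 0.9. The 8 highest were Mb (0.996), which encodes the oxygen store myoglobin, the M-band gene Myom1 (0.981), the muscle subunit Cox7a1 of cytochrome oxidase (0.98), the complex III subunit Uqcr11 (0.978), the mitochondrial creatine kinase Ckmt2 (0.977), the fatty acid carrier Fabp3 (0.976), the ADP/ATP carrier Slc25a4 (0.973) and the cytochrome Cyc1 (0.973). Mb averaged 1010 in rejecting, 3670 in tolerizing and 6130 in isograft hearts at day 7, and 4890 in tolerizing and 6240 in isograft hearts at day 70.

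Some sarcomere proteins have a fetal or slow-muscle counterpart, and the ratio of the pair within an array asks whether their balance shifted. The level of such a ratio compares different probe sets and means nothing by itself, so only its differences between hearts are read. With 3 hearts against 3 the smallest two-sided p of the exact permutation test is 0.10, and p was adjusted over 9 tests, so no pair could pass. The log2 ratio of Myh7 to Myh6 was 0.45, 1.02 and 0.25 in rejecting, 0.12, -0.1 and 0.77 in tolerizing and 0.83, -0.67 and 0.27 in isograft hearts. The groups overlapped, at a difference of 0.43 for rejecting minus isograft (exact permutation p = 0.50, adjusted 0.562), or 0.59 without rejecting heart 3, and Myh7 and Myh6 were low in the same hearts. This ratio uses the brighter Myh7 probe set, which may also match related myosin transcripts. The dimmer Myh7 probe set fell less than Myh6 (log2 -1.67 against -3.99). Whether the balance of Myh7 and Myh6 shifted thus depends on the probe set.

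Acta1 encodes skeletal α-actin, which fetal and stressed hearts also make. Its signals were 1645.4, 2595.4 and 3686.9 in rejecting, 4411.1, 5052.4 and 5934.9 in tolerizing and 2478.4, 177.4 and 574.9 in isograft hearts at day 7. The isografts overlapped the rejecting but not the tolerizing hearts, and Acta1 was not called against isografts (limma adjusted p = 0.2403 for rejecting hearts, 0.3591 for rejecting hearts without the third and 0.2196 for tolerizing hearts). The log2 ratio of Acta1 to Actc1 was 0.75, 0.98 and 0.57 in rejecting, 0.88, 0.69 and 1.09 in tolerizing and -1.29, -4.61 and -2.58 in isograft hearts. Every allograft was above every isograft, at a difference of 3.59 for rejecting and 3.71 for tolerizing minus isograft (exact permutation p = 0.10 and adjusted 0.3 for each, with the isografts shared). Rejecting and tolerizing hearts differed by -0.12 in this ratio (exact permutation p = 0.50). Leaving out rejecting heart 3, these differences were 3.69 for rejecting minus isograft and -0.02 for rejecting minus tolerizing. At day 70 the ratio was 0.27, -0.25 and 0.49 in tolerizing hearts against -6.42 and -1.18 in isografts, with no overlap. The allografts and isografts compared also differ in donor strain, whose part in this ratio cannot be told apart from that of the immune response.

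Tnni1, the slow troponin I of the fetal heart, had 175, 136.8 and 55.3 in rejecting and 109.9, 88.3 and 114.7 in isograft hearts at day 7, with overlap and a log2 difference of 0.08 (limma adjusted p = 0.9177), or 0.58 for Tnni1 without rejecting heart 3 (limma adjusted p = 0.1036). The log2 ratio of Tnni1 to Tnni3 was 0.08, -1.15 and -5.35 in rejecting hearts, -4.35, -4.98 and -4.87 in tolerizing hearts and -5.58, -6.02 and -5.1 in isografts. Rejecting hearts 1 and 2 stood above all others and rejecting heart 3 among the isografts, at a difference of 3.43 (exact permutation p = 0.20, adjusted 0.45), or 5.03 without rejecting heart 3. Of 19 genes of atrial, skeletal, fetal or slow muscle in the list, 12 were tested and none was called in any comparison on all arrays. Myl1, a light chain of skeletal and fetal heart myosin, was called lower in rejecting than in tolerizing hearts without rejecting heart 3 (log2 -2.07, limma adjusted p = 0.04818). The skeletal muscle genes Myh1, Myh2 and Tnni2, named after their values were seen, reached at most 12.2, 5.5 and 7.7 on any array, near or under the floor of 11.

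**Figure D5:**
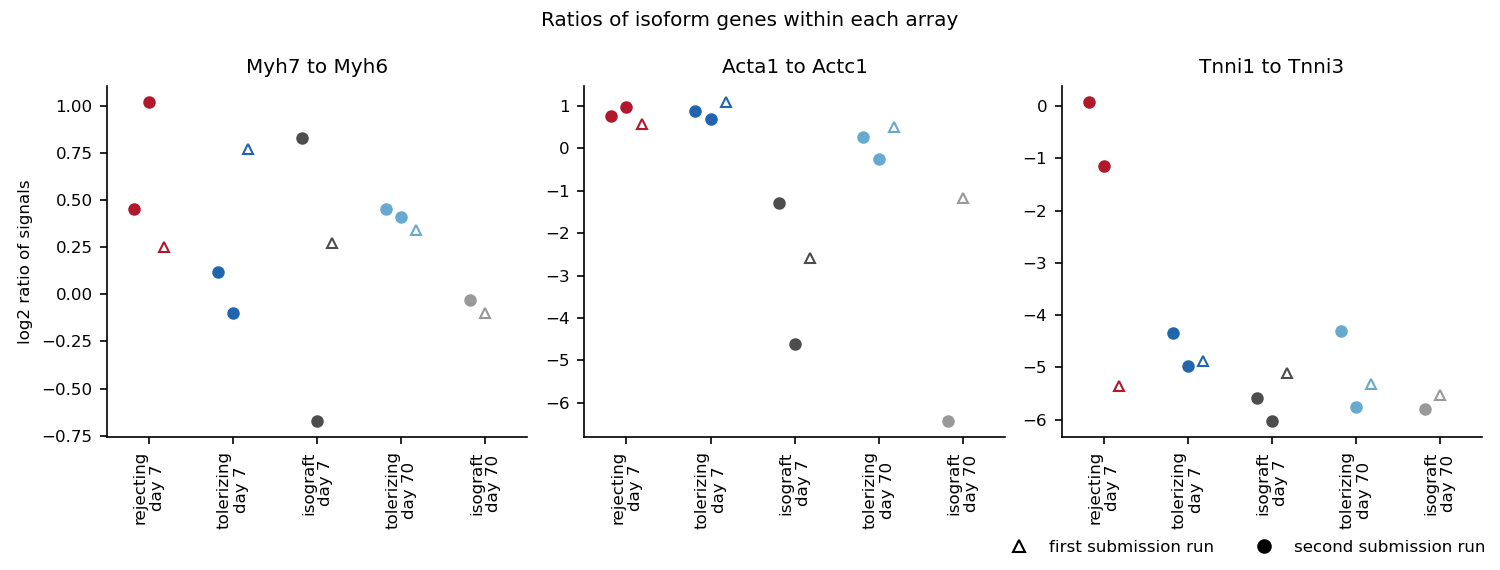
Log2 ratio of signals within each array for Myh7 to Myh6, Acta1 to Actc1 and Tnni1 to Tnni3, by group, with open triangles for the first submission run and a separate scale in each panel. For Acta1 to Actc1 the 6 allografts of day 7 lie between 0.57 and 1.09 and the 3 isografts of day 7 between -4.61 and -1.29.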

How the data were processed

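One MG-U74Av2 array was hybridised per transplanted heart, 14 in 5 groups taken from the sample labels. The deposited table holds 1 signal intensity per probe set and array on a linear scale, made by the authors. Their software and scaling were not given in the sources used here. The mean signal after trimming 2% at each end was 100.06 to 100.07 on every array, so the values come scaled to a common mean. A larger change in some genes therefore shifts the others relative to the total.

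Of 12488 probe sets, 66 controls were left out. GEO's platform annotation gave 1 gene to 10833, several to 396 and none to 1193 of the rest, and only those with 1 gene were named. A floor of 11 was set at the 25th percentile of the table, lower signals were raised to it, and log2 was taken. Probe sets above 11 on at least 3 arrays were kept (10395, or 83.7%, for 7366 genes). limma 3.58.1 in R 4.3.3 fitted all 5 groups together, with eBayes and an intensity trend (9 residual and 4.45 prior degrees of freedom). Tests were two-sided, with Benjamini-Hochberg adjustment over all tested probe sets of a comparison and a threshold of 0.05. Isoform ratios were compared with exact permutation tests in scipy 1.17.1 under Python 3.11.15. The fit was tested on simulated data, and the permutation test and the motif search on small made-up inputs with known answers.

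The labels do not say whether hearts of a group came from separate operations or litters. The limma p-values judge differences against the spread between these samples, pooled over the 5 groups. The number of arrays limits the precision. The 10 genes and all gene lists were chosen with earlier results of these data known. All 10 are named in every comparison. Of the other sarcomere and muscle isoform genes, the 4 with the smallest p among those called in each direction are named, and of all other genes the 8 whose pattern is nearest to the mean of the 10. Same-numbered hearts of different groups correlated at -0.176 to 0.34 in their deviations from the group means, over 0.1 in 11 of 26 pairs. Only between tolerizing hearts of day 70 and day 7 were all 3 pairs over 0.1 (0.34, 0.253 and 0.268). No label says that same-numbered hearts form a pair, and hearts with different numbers were not compared, so a pairing was not shown. Number 3 of each group of 3 is also its first-run array, so for these hearts a shared number and a shared run cannot be told apart. Promoter windows come from RefSeq (GRCm38.p6), and Tcap is not shown there. Alternatives changed the floor, scaling, filter, spread model, arrays in the fit, submission run, replicate number, beta-actin ratio as a covariate and the choice of probe set, and left out each array in turn.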

Additional observations from a re-analysis of the deposited data

How the results depend on the processing

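Against isografts at day 7, the count of 10 sarcomere genes lower in rejecting hearts was 9 to 10 with each array left out and 9 or 10 in the other alternatives, except when the groups of the comparison were fitted alone, with 1 gene (Mybpc3). Rejecting against tolerizing hearts gave 0 genes on all arrays, 2 with a floor at the 50th percentile or quantile normalization, 1 with log2(signal + 16), without the intensity trend, with the median over probe sets or with probe sets above the floor on all 14 arrays (of 9 genes), 7 in the second submission run alone, 10 with array weights and 0 to 10 with each array left out, the 10 without rejecting heart 3. The other 5 comparisons gave 0 genes in each alternative, 0 to 0 with arrays left out. A replicate block gave 9 genes against isografts (Tcap lost) and 0 in the other 6 comparisons. No label pairs the hearts by number, so the lost call is not described as a weaker effect. The submission run as a block gave 10 and the beta-actin ratio as a covariate 9. Differences in isoform ratio kept their sign in the alternatives run, with exceptions in 2. Myh7 to Myh6 in tolerizing minus isograft hearts (0.12) was -0.07 in the second run alone and -0.29 to 0.46 with an array left out (-0.13 without tolerizing heart 3 and -0.29 without isograft 2). Acta1 to Actc1 in rejecting minus tolerizing hearts (-0.12) was 0.08 in the second run alone and -0.23 to -0.02 with an array left out. With an array left out, Acta1 to Actc1 was 2.7 to 4.35 in rejecting and 2.82 to 4.48 in tolerizing minus isograft hearts, and Tnni1 to Tnni3 was 2.31 to 5.03 and 0.61 to 1.07. The causes of these changes were not tested. Signals near the floor, as for Tcap, Smyd1 and the dimmer Myh7 probe set in rejecting hearts, limit the size of a measured fall.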

Other observations

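The natriuretic peptide genes Nppa and Nppb are known to be expressed more in strained heart muscle. They differed from the sarcomere genes in that isograft 2 stood lowest at day 7. Nppa gave 587.7, 869.7 and 1460.3 in rejecting, 1488.9, 2034.5 and 2026.6 in tolerizing and 2855, 523.4 and 1467.9 in isograft hearts at day 7. Nppb gave 1133.1, 1955.8 and 4074.1 in rejecting, 5025.6, 6694 and 5514.7 in tolerizing and 4458.6, 721.3 and 2468.2 in isograft hearts at day 7. Isograft 2 was lowest of all 9 hearts for both genes, and rejecting hearts 1 and 2 were next. All rejecting hearts lay under all tolerizing hearts, as for 7.76% of probe sets. The log2 differences of rejecting minus tolerizing hearts were -1.01 for Nppa and -1.45 for Nppb, not called (limma adjusted p = 0.3903 and 0.3672). They were -1.36 and -1.94 without rejecting heart 3, again not called (limma adjusted p = 0.1739 and 0.1587). Both genes were named after their values were seen, and neither was called in rejecting or tolerizing hearts against isografts (limma adjusted p between 0.3959 and 0.9768). Without rejecting heart 3 the log2 differences of rejecting minus isograft hearts were -0.86 for Nppa and -0.42 for Nppb, again not called (limma adjusted p = 0.31 and 0.7455).

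Ankrd1, a stress-responsive protein of the I-band, had 1885.3, 2687 and 3728.3 in rejecting, 3802.3, 4594.3 and 3672.7 in tolerizing and 5761.7, 3597.1 and 3253.1 in isograft hearts at day 7. Rejecting hearts 1 and 2 were below the other 7 hearts of day 7, as for the 10 sarcomere genes. Unlike those genes, Ankrd1 was not called in rejecting hearts against isografts (log2 -0.61, limma adjusted p = 0.1873). With rejecting hearts 1 and 2 alone as the rejecting group, its log2 difference was -0.85, again not called (limma adjusted p = 0.05232). Ankrd1 was named after its values were seen.

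The atrial light chain gene Myl7 gave 397.5 in isograft 2 of day 7 and at most 15.5 on any other array. Myl4, the other light chain gene of atrial muscle, also had its highest signal there, at 153.8, against at most 100.6 elsewhere. Both were named after their values were seen. Nppa and Nppb went the other way, lowest of the day 7 hearts in isograft 2, at 523.4 and 721.3.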
